A study of Mus musculus with 6 samples.

Results

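Proteasome subunit genes were taken from the raw count table by name: every symbol beginning Psma, Psmb, Psmc, Psmd or Psme and a digit, without pseudogenes and without symbols ending in ip1. The rule gave 44 genes of 23337. The 5 genes of the immunoproteasome and of the activator PA28 (Psmb8, Psmb9, Psmb10, Psme1 and Psme2) were compared with the other 39. One of those 39, Psmc3ip, is taken by its symbol but encodes no subunit: it is a recombination protein named for binding Psmc3. The study sequenced polyadenylated RNA from mouse leukemia that the labels call primary neonatal murine leukemia, in 3 libraries treated with ccl5, a chemokine, and 3 under control conditions. The title places the leukemia among those with a rearranged MLL gene. The fusion, the strain, the dose and the duration of treatment are not given in the sources used here. Ccl5 replicate 1 is labelled as a tertiary transplant (neo30ccl5). Ccl5 replicates 2 and 3 (neo10ccl5) and control replicate 3 (neo10ctrl) are labelled as primary transplants, and control replicates 1 and 2 (neo_control and negative) carry no transplant label. No label ties a library to its own mouse or culture, and p-values here therefore reflect the spread among these libraries, which may be technical.

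The proteasome degrades proteins that carry ubiquitin. Its 20S core is a barrel with an outer ring of alpha subunits at each end and inner rings of beta subunits, of which Psmb5, Psmb6 and Psmb7 cut peptide bonds. The 19S regulatory particle caps the core, and its base of ATPases (Psmc genes) unfolds substrates that its lid has freed of ubiquitin. In cells of the immune system and after interferon-gamma, Psmb8, Psmb9 and Psmb10 are built into new cores in place of Psmb5, Psmb6 and Psmb7, and the PA28 ring of Psme1 and Psme2 can cap them. Many peptides shown on MHC class I come from this immunoproteasome, and blood cells are known for expressing it without stimulation.

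The libraries held between 13421100 and 18445095 counted reads, so that 3 counts corresponded to between 0.16 and 0.273 CPM, the read count scaled to the library's total after TMM adjustment. The 6 libraries formed 3 close pairs that did not follow the groups. Across genes, log2 CPM correlated at 0.993 between ccl5 replicates 1 and 3, at 0.995 between control replicates 1 and 2, and at 0.995 between ccl5 replicate 2 and control replicate 3, against 0.826 to 0.887 for the other pairs. Ccl5 replicates 1 and 3 had 0 reads of 4 Y-linked genes and 29408 and 25725 reads of Xist, whereas the other 4 libraries had between 5103 and 7777 Y-linked reads. Ccl5 replicates 2 and 3 therefore stood apart although their labels name the same source. In the edgeR quasi-likelihood fit over all 6 libraries the coefficient of variation was 46.1%, and 0 of 12174 tested genes passed a Benjamini-Hochberg adjusted p of 0.05, with a smallest adjusted p of 0.365. DESeq2 called 191 genes, none of them a member. Limma-voom with weights for library quality called 8097 genes (4082 lower and 4015 higher), or 66.5% of those tested. It called 32 members (27 lower and 5 higher), or 76.2% of the tested members. At an unadjusted p under 0.05 edgeR's test had 1095 genes higher and 568 lower with ccl5.

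Of the 44 genes 42 had enough reads to test, and 0 of them were called, where the share of all tested genes called was 0%. The 5 immunoproteasome and PA28 genes varied at most 1.35-fold over the libraries, as did 10 of the other 37 tested members. Most genes of the constitutive 20S core were lower in ccl5 replicates 1 and 3 than in control replicates 1 and 2. Ccl5 replicates 1 and 3 lacked Y-linked reads and every control had them. In the contrast over all libraries too, treatment therefore cannot be told apart from that difference wherever ccl5 replicates 1 and 3 carry the change. The median log2 fold change, ccl5 over control, was -0.05 for the 5 immunoproteasome and PA28 genes, -0.29 for the 14 constitutive 20S genes, -0.19 for the 17 genes of the 19S particle and -0.01 for all tested genes. Of the 42 members 33 had a negative fold change and 9 a positive one. The counts over all genes were 6210 negative and 5964 positive. Scaling by library totals without TMM moved the median of all genes to -0.17, the 5 genes to -0.21 and the other members to -0.36, so directions here are relative to the other genes of the same library. In bulk RNA, fewer cells of a type and less RNA per cell cannot be told apart.

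**Figure D1:**
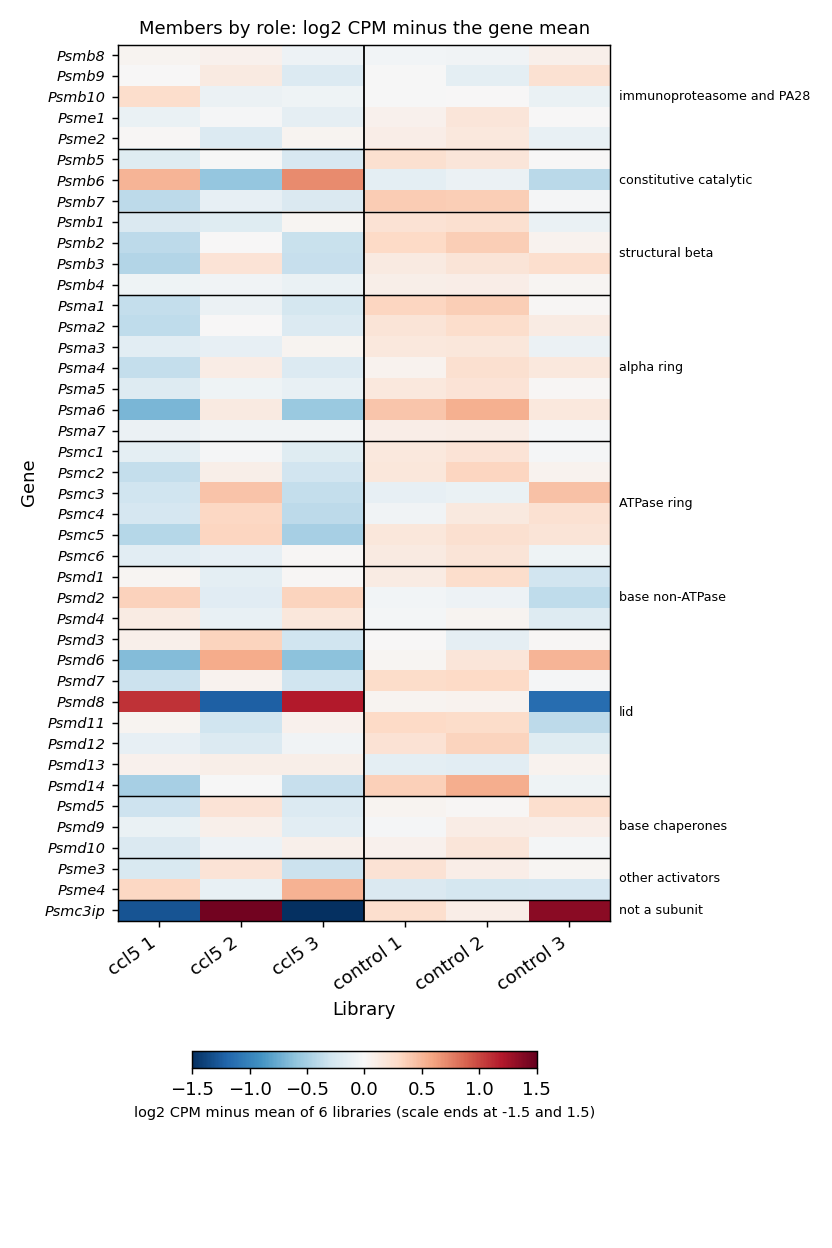
Each row is one tested member and each column one library; colour gives log2 CPM minus the gene's mean over the 6 libraries, with rows grouped by role and the scale ending at -1.5 and 1.5. The 5 immunoproteasome and PA28 rows at the top are nearly blank, most 20S rows are blue in ccl5 replicates 1 and 3, and Psmd8 and Psmc3ip have the strongest colours.

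Psmb8 encodes the immunoproteasome subunit that takes the place of Psmb5, with a chymotrypsin-like activity. It lies on chromosome 17 at 34198195 to 34201454 (mm10) in the MHC region. Its level was 149, 151 and 137 CPM in ccl5 replicates 1, 2 and 3 and 140, 139 and 152 CPM in control replicates 1, 2 and 3. The groups overlapped entirely, and the highest library exceeded the lowest 1.11-fold, the narrowest range of the 42 tested members. Its log2 fold change was 0.02 (SE 0.13, edgeR adjusted p 0.959), and its sign turned in several of the alternatives.

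Psmb9 takes the place of Psmb6 and lies near Psmb8, at 34182099 to 34187330 on chromosome 17, with the gene Tap1 between them. Its levels were 63.3, 69.4 and 54.7 CPM after ccl5, against 63.1, 57 and 73.9 CPM in controls. The 2 highest libraries were control replicate 3 and ccl5 replicate 2, one of each group. The log2 fold change was -0.05 (SE 0.17, edgeR adjusted p 0.907). Psmb10, the counterpart of Psmb7, lies on chromosome 8 at 105935728 to 105938392 and was the least abundant of the 3 per length. It measured 30.1, 23.6 and 24.1 CPM after ccl5, against 25, 25.3 and 23.4 CPM in controls, with only ccl5 replicate 1 above the rest. Its log2 fold change was 0.08 (SE 0.17, edgeR adjusted p 0.846). Reads were counted without regard to strand, and GENCODE M21 (GRCm38) places an antisense gene over Psmb8 (Gm20496, sharing 2139 bases) and over Psmb10 (Gm16156, sharing 2710 bases), so reads of these partners cannot be told apart.

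Psme1 and Psme2 encode the alpha and beta subunits of PA28, a ring that opens the end of the core, and lie near each other on chromosome 14, Psme1 at 55578494 to 55581527 and Psme2 at 55587440 to 55591101. Psme1 measured 87.2, 92.6 and 85.6 CPM after ccl5, against 98, 106 and 93.8 CPM in controls. Every ccl5 library was below every control, by a small margin between ccl5 replicate 2 and control replicate 3. The log2 fold change of Psme1 was -0.17 (SE 0.13, edgeR adjusted p 0.578). Psme2 measured 117, 100 and 119 CPM after ccl5, against 124, 129 and 107 CPM in controls. Here the 2 lowest libraries were ccl5 replicate 2 and control replicate 3, and the groups overlapped (log2 fold change -0.10, SE 0.15, edgeR adjusted p 0.796). Summed over the 5 genes, the level was 447, 437 and 421 CPM after ccl5, against 449, 456 and 451 CPM in controls.

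Per gene length, in RPKM (CPM divided by the gene's length in kilobases), Psmb8 (112 to 125 RPKM over the 6 libraries) and Psme2 (103 to 132 RPKM) were the most abundant of the 5 and overlapped in range. Psme1 followed at 87.6 to 109 RPKM, overlapping Psme2, then Psmb9 at 67.9 to 91.7 RPKM, which overlapped the lower end of Psme1. Psmb10 lay below all of them at 18.4 to 23.7 RPKM. The ratio of the highest to the lowest library had a median of 1.28 over these 5 genes, 1.55 over the other 37 tested members and 2.05 over all tested genes. Of the 42 tested members 36 stayed within 2-fold over the 6 libraries (85.7%, against 48.2% of all tested genes). Narrow ranges were not particular to the 5 genes: the highest over the lowest CPM was 1.14 for Psmb4 and 1.15 for Psma7, structural genes of the core, 1.26 for the alpha subunit Psma3 and 1.19 for the lid subunit Psmd13. These spreads are descriptions with no test.

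**Figure D2:**
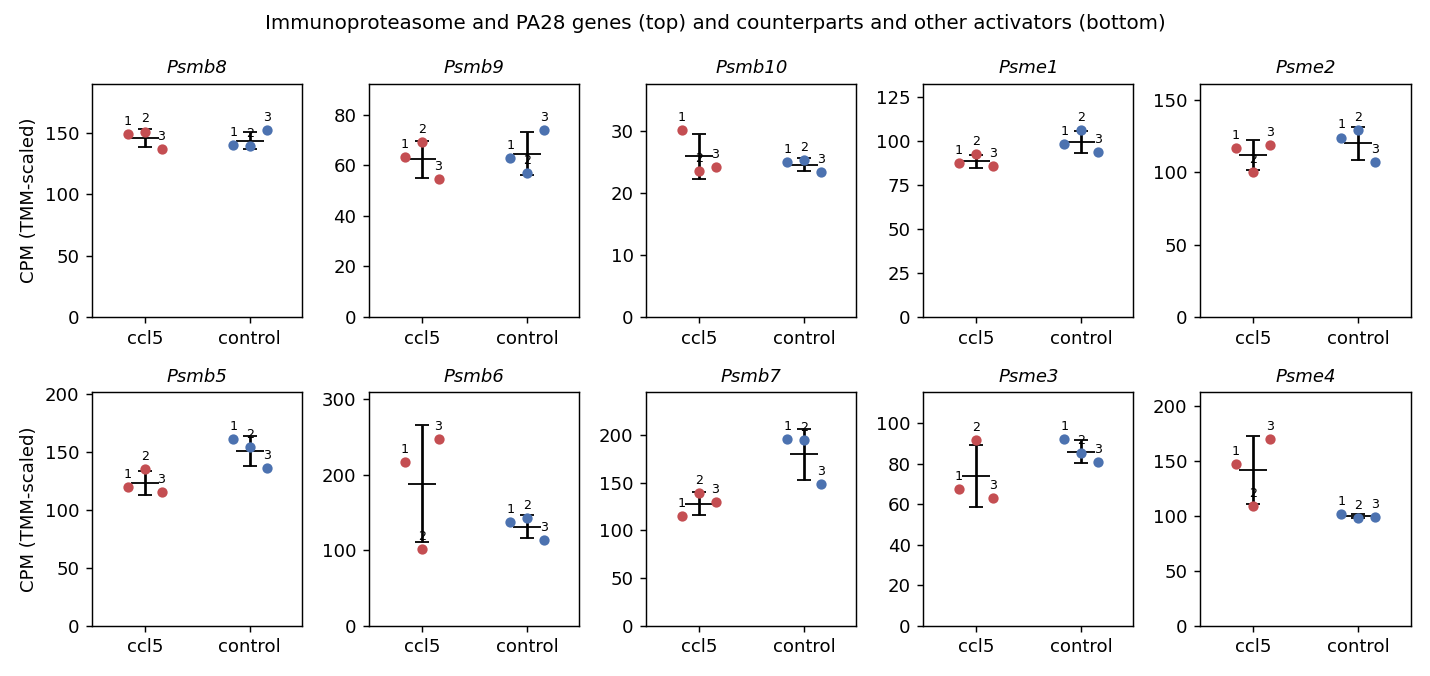
CPM in each library (points, numbered by replicate) with the group mean and SD (bars, n = 3) for the 5 immunoproteasome and PA28 genes in the top row and for Psmb5, Psmb6, Psmb7, Psme3 and Psme4 below; each panel has its own axis from 0. Groups overlap for Psmb8, Psmb9, Psmb10 and Psme2, whereas the ccl5 libraries of Psmb5 and Psmb7 lie below and those of Psme4 above all controls.

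Promoter sequence was read for the immunoproteasome genes and their constitutive counterparts because both sets encode subunits for the same enzyme positions in the core. The RefSeq promoter table (GRCm38.p6, 250 bases before to 50 bases after the start site) held 37 of the 44 genes. Psma8, Psmb1, Psmb2, Psmb7, Psmc3, Psmd3 and Psmd7 were not matched. Capitals mark the match on either strand to one of 4 motifs: GAAANNGAA, the core of an interferon-stimulated response element; TTCNNNGAA, a gamma-activated site bound by STAT factors; TGACNNNGC, the core of an antioxidant response element, which NRF family factors bind; and CCAAT. The windows are chr17:34197945-34198244 (plus strand) for Psmb8, chr14:54617946-54618245 (minus strand) for Psmb5, chr17:34187281-34187580 (minus strand) for Psmb9, chr11:70525107-70525406 (plus strand) for Psmb6 and chr14:55578244-55578543 (plus strand) for Psme1, each printed 5′ to 3′ along the gene.
Psmb8: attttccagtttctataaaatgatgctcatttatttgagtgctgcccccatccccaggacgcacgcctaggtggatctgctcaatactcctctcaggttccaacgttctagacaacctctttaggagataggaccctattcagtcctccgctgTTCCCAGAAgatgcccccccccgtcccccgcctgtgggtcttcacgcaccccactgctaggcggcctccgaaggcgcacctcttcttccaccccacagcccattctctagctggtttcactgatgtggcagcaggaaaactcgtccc
Psmb5: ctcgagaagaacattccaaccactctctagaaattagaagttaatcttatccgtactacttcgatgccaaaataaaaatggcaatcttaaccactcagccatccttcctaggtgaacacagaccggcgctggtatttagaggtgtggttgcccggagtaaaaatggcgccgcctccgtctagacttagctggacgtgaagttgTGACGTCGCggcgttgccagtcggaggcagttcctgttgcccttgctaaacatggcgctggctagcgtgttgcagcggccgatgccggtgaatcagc
Psmb9: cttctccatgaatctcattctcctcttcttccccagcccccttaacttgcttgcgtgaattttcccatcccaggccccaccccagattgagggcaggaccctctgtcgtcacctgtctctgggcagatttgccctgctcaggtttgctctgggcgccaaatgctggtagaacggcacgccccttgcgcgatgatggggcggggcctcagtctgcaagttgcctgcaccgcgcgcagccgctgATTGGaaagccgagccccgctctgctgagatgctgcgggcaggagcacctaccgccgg
Psmb6: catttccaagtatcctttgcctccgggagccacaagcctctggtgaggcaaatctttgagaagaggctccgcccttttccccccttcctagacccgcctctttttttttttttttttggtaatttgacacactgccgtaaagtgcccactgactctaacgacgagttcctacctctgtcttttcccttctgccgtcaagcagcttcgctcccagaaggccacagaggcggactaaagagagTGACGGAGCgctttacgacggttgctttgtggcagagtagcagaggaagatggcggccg
Psme1: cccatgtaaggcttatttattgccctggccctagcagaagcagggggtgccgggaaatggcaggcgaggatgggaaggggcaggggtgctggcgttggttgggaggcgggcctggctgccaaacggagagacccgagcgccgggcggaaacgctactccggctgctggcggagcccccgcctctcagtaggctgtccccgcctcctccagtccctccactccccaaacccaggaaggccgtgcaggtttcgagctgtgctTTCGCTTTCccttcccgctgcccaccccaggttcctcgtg

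The capitals are TTCNNNGAA in Psmb8, 97 bases before the start site, TGACNNNGC in Psmb5 and Psmb6, 47 and 9 bases before it, CCAAT read on the opposite strand in Psmb9, 8 bases before it, and GAAANNGAA read on the opposite strand in Psme1, inside the transcribed part. The Psmb10 window held none of the 4. Among the 37 matched members TGACNNNGC was found in 6 (Psmb5, Psmb6, Psmc6, Psmd9, Psmd12 and Psme4), none of them an immunoproteasome or PA28 gene, and in 12.4% of all 32851 promoters. GAAANNGAA was found in 6 members, of which Psme1 was the only immunoproteasome or PA28 gene, and in 8.56% of all promoters. TTCNNNGAA was found in Psmb8 and Psmd2 and in 8.3% of all promoters, and CCAAT in 15 members and in 37.4% of all promoters. The GAA at the end of TTCNNNGAA can also begin GAAANNGAA. A match describes letters in this window and does not show that a factor binds there.

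The constitutive catalytic subunits were less steady over the libraries than the subunits that replace them: the highest over the lowest CPM was 1.41 for Psmb5, 2.44 for Psmb6 and 1.7 for Psmb7, against 1.11 for Psmb8, 1.35 for Psmb9 and 1.29 for Psmb10. Psmb5, the chymotrypsin-like subunit (chromosome 14, 54614120 to 54617995), measured 120, 135 and 115 CPM after ccl5, against 161, 154 and 136 CPM in controls. The groups did not overlap, but ccl5 replicate 2 and control replicate 3 were nearly equal, and the log2 fold change was -0.29 (SE 0.15, edgeR adjusted p 0.42). Psmb7, the trypsin-like subunit (chromosome 2, 38588046 to 38643906), measured 115, 139 and 130 CPM after ccl5, against 196, 195 and 149 CPM in controls. Again every ccl5 library was below every control, with a log2 fold change of -0.49 (SE 0.18, edgeR adjusted p 0.365). Psmb6, the caspase-like subunit (chromosome 11, 70525357 to 70527858), went the other way in the same libraries: 216, 101 and 247 CPM after ccl5, against 137, 142 and 114 CPM in controls. Ccl5 replicates 1 and 3 were the 2 highest and ccl5 replicate 2 the lowest of the 6, and the log2 fold change was 0.52 (SE 0.35, edgeR adjusted p 0.507). GENCODE M21 lists 4 pseudogenes of these subunits (Psmb5-ps, Psmb6-ps, Psmb6-ps2 and Psmb7-ps2), whose reads the counting could have shared. In the deposited annotation Psmb5 also shares 109 exon bases with Mir686, Psme1 shares 4 with Fam158a, Psma4 shares 45 with AY074887 and Psmc3ip shares 67 with Mlx.

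Each immunoproteasome subunit was then set against the subunit it replaces within the same library, a ratio that needs no scaling between libraries. On the RPKM scale, Psmb8 made up 46.9%, 44.3% and 46.1% of the Psmb8 and Psmb5 pair with ccl5 and 38.1%, 39.2% and 44.4% in controls. Control replicate 3 lay inside the range of the ccl5 libraries. Psmb9 made up 27.4%, 46.8% and 22.1% of the Psmb9 and Psmb6 pair with ccl5 and 37.1%, 34.1% and 45.4% in controls, the 2 highest shares being ccl5 replicate 2 and control replicate 3. Psmb10 made up 16.7%, 11.5% and 12.4% of its pair with Psmb7 with ccl5 and 8.88%, 9.02% and 10.7% in controls, and these groups did not overlap. The mean log2 ratio differed, ccl5 minus control, by 0.31 for Psmb8 over Psmb5 (-0.25 ± 0.08 against -0.55 ± 0.20, SD, n = 3 each, exact permutation p 0.2), by -0.48 for Psmb9 over Psmb6 (exact permutation p 0.5) and by 0.56 for Psmb10 over Psmb7 (-2.70 ± 0.33 against -3.25 ± 0.16, exact permutation p 0.1). The tests were two-sided, and 0.1 is the smallest p that 3 against 3 libraries allow. Adjusted over the 3 pairs the values of this exact test were 0.3, 0.5 and 0.3. With 3 against 3 libraries no difference could have passed the threshold of 0.05, so the test leaves all 3 undecided.

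**Figure D3:**
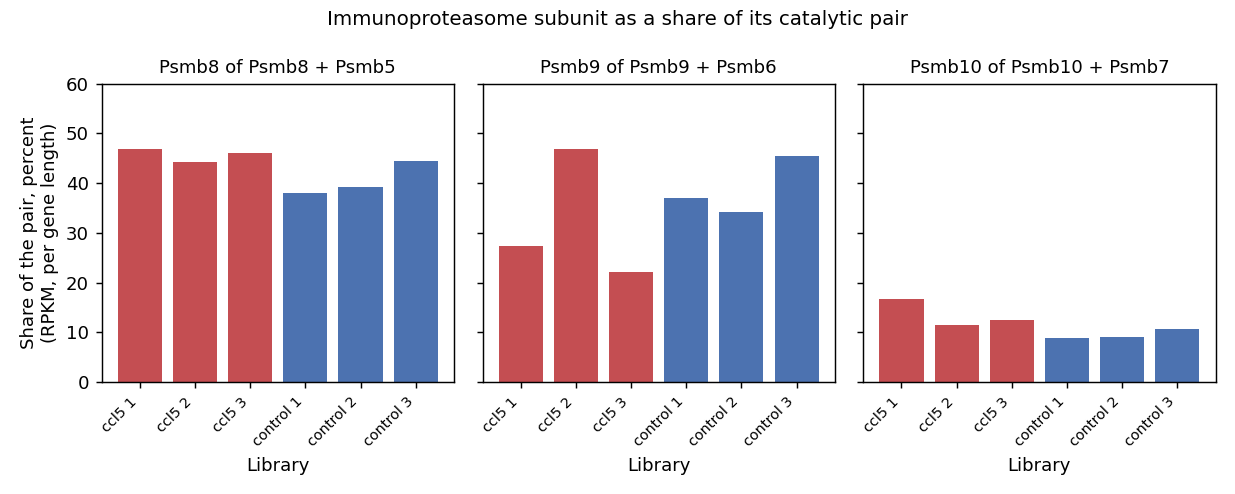
Bars give the share of each catalytic pair, in percent of summed RPKM, that the immunoproteasome subunit made up in each of the 6 libraries (red ccl5, blue control). The Psmb10 bars of all ccl5 libraries (11.5% to 16.7%) stand above all controls (8.88% to 10.7%), the Psmb8 bars overlap at control replicate 3, and the Psmb9 bars spread most within the ccl5 group.

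In the rest of the 20S core, lower values with ccl5 were the common pattern, mostly through ccl5 replicates 1 and 3. Those libraries lacked Y-linked reads, so treatment cannot be told apart from that difference. All 7 alpha subunits, which form the outer gate rings, and all 4 structural beta subunits had negative fold changes, with medians of -0.29 and -0.30. Psma6, an alpha subunit, had the most negative one and measured 126, 222 and 138 CPM after ccl5, against 270, 293 and 225 CPM in controls. Its ccl5 replicates 1 and 3 were far below all others, while ccl5 replicate 2 and control replicate 3 nearly coincided (log2 fold change -0.69, SE 0.27, edgeR adjusted p 0.365). Psma1, another alpha subunit, measured 155, 188 and 166 CPM after ccl5, against 250, 257 and 202 CPM in controls (giving a log2 fold change of -0.48, SE 0.17, edgeR adjusted p 0.365). Psmb2, a beta subunit without a known active site, measured 79.2, 105 and 82.5 CPM after ccl5, against 128, 135 and 108 CPM in controls (giving a log2 fold change of -0.48, SE 0.18, edgeR adjusted p 0.365). In both, every ccl5 library was below every control. Psmb3, also structural, measured 105, 164 and 112 CPM after ccl5, against 156, 163 and 170 CPM in controls, so that ccl5 replicate 2 fell among the controls. Per length, Psmb1 was the most abundant structural beta subunit on average, at 192, 197 and 228 RPKM with ccl5 and 260, 262 and 209 RPKM in controls, which overlapped.

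Of the 14 constitutive 20S genes, 9 had every ccl5 library below every control (64.3%): Psma1, Psma2, Psma5, Psma6, Psma7, Psmb2, Psmb4, Psmb5 and Psmb7. Over all 42 members this held for 10, the tenth being Psme1, where 7.49% of all tested genes did so. In the other direction it held for 2 members, Psmd13 and Psme4, where 8.27% of all tested genes did so. Among the 9 genes of the 20S core the margin between ccl5 replicate 2 and control replicate 3 was narrow. Their log2 ratios ran only from -0.105 (Psma2) to -0.013 (Psmb5). The genes are read in the same libraries, so they are not separate observations. At an unadjusted p under 0.05 there were 5 members lower with ccl5 (Psma1, Psma6, Psmb2, Psmb7 and Psmd14), or 11.9% of 42, where 4.67% of all tested genes were. In the higher direction there was 1 such member, Psme4, or 2.38%, where 8.99% of all tested genes were. Summed over the 14 genes the 20S level was 1940, 2180 and 2100 CPM after ccl5, against 2600, 2680 and 2280 CPM in controls, so the groups did not overlap. Per length the 14 genes were within a narrow band of each other in any 1 library, the highest over the lowest ranging from 2.24 to 2.51.

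**Figure D4:**
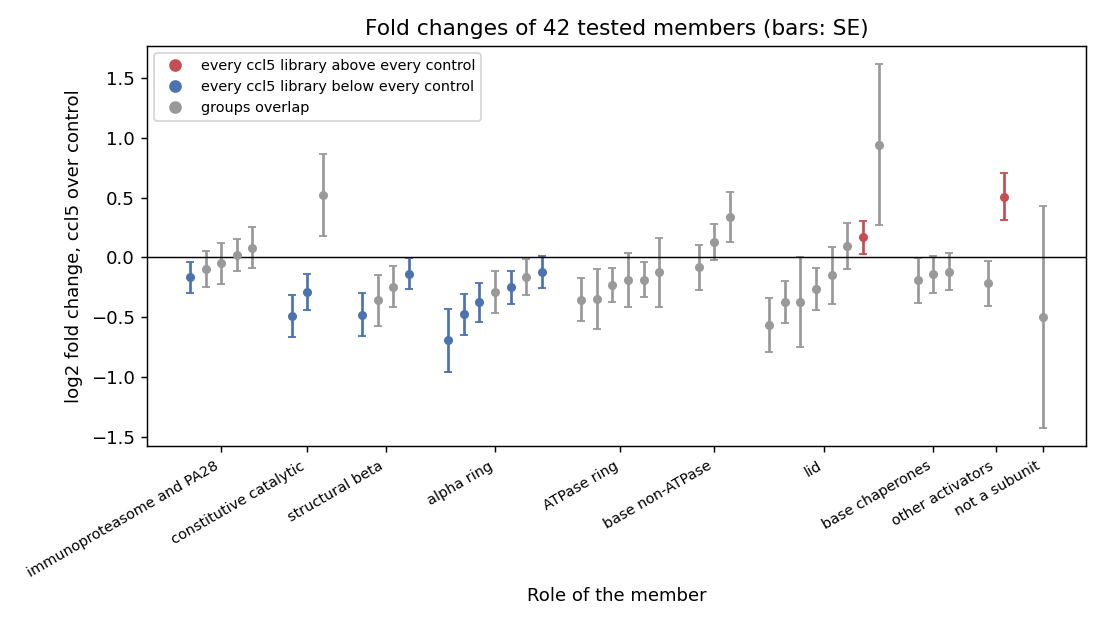
Points give the log2 fold change (ccl5 over control, edgeR, with SE bars) of the 42 tested members, ordered by role, red where every ccl5 library exceeded every control, blue where every one was below and grey where the groups overlapped. The blue points are 9 genes of the constitutive 20S core and Psme1; the red points are Psmd13 and Psme4.

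The 19S particle did not share that pattern of separation: 12 of its 17 genes had negative fold changes, but none had every ccl5 library below every control. All 6 ATPases of the base ring were among the 12, with a median of -0.21. Psmc2, an ATPase, measured 66.8, 91 and 70.2 CPM after ccl5, against 95.9, 107 and 88.7 CPM in controls, overlapping only through ccl5 replicate 2 and control replicate 3. Psmc1, another ATPase, measured 101, 110 and 98.4 CPM after ccl5, against 124, 129 and 110 CPM in controls, with ccl5 replicate 2 and control replicate 3 level. Psmc6 was the most abundant ATPase per length on average, at 71.7, 73.5 and 80.9 RPKM with ccl5 and 88.3, 92.2 and 76.8 RPKM in controls. Psmd14, the lid enzyme that cuts ubiquitin off substrates, measured 78.9, 111 and 87.6 CPM after ccl5, against 142, 162 and 106 CPM in controls. Its log2 fold change was -0.57 (SE 0.22, edgeR adjusted p 0.365). Psmd7, the inactive partner of Psmd14 in the lid, measured 53.4, 69.3 and 54.1 CPM after ccl5, against 81, 82.2 and 65.8 CPM in controls, again overlapping only through ccl5 replicate 2 and control replicate 3 (log2 fold change -0.37, SE 0.18, edgeR adjusted p 0.394).

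Psmd8, a lid subunit on chromosome 7 (29174187 to 29180673), varied most of all 19S genes. Its level was 932, 187 and 1000 CPM after ccl5, against 452, 453 and 198 CPM in controls. The libraries fell at 3 levels, each shared by 1 pair: ccl5 replicates 1 and 3 highest, control replicates 1 and 2 between, and ccl5 replicate 2 with control replicate 3 lowest. The highest exceeded the lowest 5.38-fold, and the log2 fold change of 0.94 carried an SE of 0.67 (edgeR adjusted p 0.54). Per length Psmd8 was the most abundant 19S gene in every library (616, 123 and 663 RPKM with ccl5 and 299, 299 and 131 RPKM in controls). Its level per length was 3.03 to 26.1 times that of the lowest 19S gene, and without it the ratio of highest to lowest was 2.19 to 4.52. Psmd2, a scaffold of the base, followed a like order at 353, 248 and 350 CPM after ccl5, against 270, 265 and 214 CPM in controls, and Psmd4, a ubiquitin receptor of the base, ranged only from 90.4 to 110 CPM after ccl5 and from 85.1 to 100 CPM in controls.

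The remaining members help build the particle or open the core by another route. Psmd5, Psmd9 and Psmd10 are chaperones that hold parts of the base during assembly. Psmd5 measured 57.3, 82 and 61.9 CPM after ccl5, against 73, 72 and 85 CPM in controls, and Psmd10 measured 29.9, 33 and 36.5 CPM after ccl5, against 36.3, 39.3 and 34 CPM in controls, so both overlapped. Psme3, the nuclear PA28-gamma activator (chromosome 11, 101316251 to 101323530), measured 67.6, 91.7 and 63.2 CPM after ccl5, against 92.3, 85.3 and 80.7 CPM in controls, with ccl5 replicate 2 among the controls. Psme4 encodes the large single-chain activator PA200 (chromosome 11, 30771775 to 30880361). It measured 147, 109 and 170 CPM after ccl5, against 102, 98.4 and 99.3 CPM in controls. Every ccl5 library was above every control, the log2 fold change was 0.51 (SE 0.20, edgeR adjusted p 0.365), and its sign was positive under all alternatives that were run. Psma8, a core subunit of the testis, had 0 counts in all libraries, and Psmb11, the core subunit of thymic epithelium, had 2, 0 and 1 counts with ccl5 and 4, 3 and 1 in controls, so neither was tested. Psmc3ip measured 2.42, 16.1 and 1.64 CPM after ccl5, against 7.04, 6.34 and 15.2 CPM in controls.

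Because of the pairing of libraries, the contrast was also split. Between ccl5 replicate 2 and control replicate 3, which resembled each other and carry the neo10 label, the median log2 ratio was -0.06 for the 20S core, 0.06 for the 19S particle, -0.02 for the 5 immunoproteasome and PA28 genes and 0.00 for all tested genes. All 14 constitutive 20S genes were below 0 there, with ratios between -0.17 and -0.01, and no test exists for 1 library against 1. The median absolute log2 difference between these 2 libraries was 0.106 over all tested genes. The 14 genes are read in the same 2 libraries, so they are not separate observations. For ccl5 replicates 1 and 3 over control replicates 1 and 2 the medians were -0.43, -0.24, -0.03 and -0.02 in the same order. In that part of the contrast 13 of the 14 20S genes were below 0, Psmb6 being the exception at 0.73, and Psma6 reached -1.09.

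**Figure D5:**
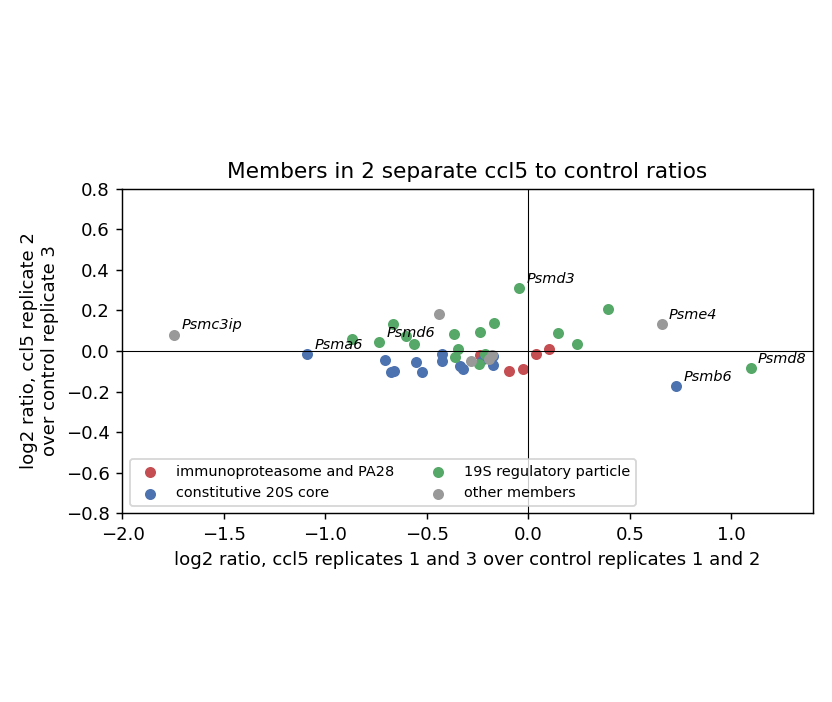
Each point is a tested member; the horizontal axis gives the log2 ratio of ccl5 replicates 1 and 3 over control replicates 1 and 2, the vertical axis that of ccl5 replicate 2 over control replicate 3, at the same scale. The points run from -1.75 (Psmc3ip) to 1.10 (Psmd8) along the horizontal axis and only from -0.17 to 0.31 (Psmd3) along the vertical one, and the 5 immunoproteasome and PA28 genes lie close to the crossing of both zero lines.

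Leaving out libraries changed what was called. Without ccl5 replicate 2, edgeR called 10 members at an adjusted p of 0.05: Psme4 and Psmb6 rose, where 14.3% of all tested genes did, and 8 fell (Psma2, Psma6, Psmb2, Psmb3, Psmc2, Psmc5, Psmd6 and Psmc3ip), where 11.9% did. Without both ccl5 replicate 2 and control replicate 3, an alternative chosen after seeing the data, 31 of 42 members were called. Of these, 5 rose (Psme4, Psmb6, Psmd2, Psmd8 and Psmd13) where 35.2% of all tested genes did, and 26 fell where 35.5% did. Psme1 was the only one of the 5 immunoproteasome and PA28 genes among them, at -0.22, while Psmb8, Psmb9, Psmb10 and Psme2 were not called in that fit. That fit sets 2 libraries without Y-linked reads against 2 libraries with them. Ccl5 replicates 1 and 3 also differ from these controls in their transplant labels, so treatment cannot be told apart from these differences. The fit without ccl5 replicate 2 alone likewise sets libraries without Y-linked reads against controls that all have them. Treatment cannot be told apart from that difference either. Without control replicate 3, 237 genes and 0 members were called. Leaving out any one of the other 4 libraries gave 0 calls.

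Other properties of the libraries moved in the same 3 pairs. The 20 G2/M and mitosis genes summed to 359, 3150 and 250 CPM after ccl5, against 1270, 1360 and 3070 CPM in controls, and Psmc3ip followed this order, lowest in ccl5 replicates 1 and 3. All 20 had negative fold changes, with a median of -0.72. The 16 monocyte and macrophage markers summed to 22600, 4260 and 26200 CPM after ccl5, against 12300, 12100 and 4620 CPM in controls, the order that Psmd8 and Psmb6 followed. The neutrophil markers, 12 in the table, summed to 543, 12900 and 601 CPM after ccl5, against 952, 993 and 12500 CPM in controls. The part of these marker levels in the proteasome results was not tested. Lymphoid markers were low: of 15 T and NK cell genes 8 were at or below 3 counts in every library, Ifng, Gzma, Gzmb and Ncr1 were at 0, and the sum was 1.91 to 62.8 CPM after ccl5, against 3.55 to 69.7 CPM in controls, nearly all of it Nkg7 (60.5 and 66.7 CPM in the 2 highest). The 9 B cell markers summed to between 12 and 17 CPM, 10 stroma and endothelium markers to between 62.6 and 130 CPM, and no erythroid gene of 7 exceeded 27 counts in any library.

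The 5 lists of genes around the proteasome were described in the same way, and 0 of their genes were called. Of 14 genes for assembly and associated proteins 10 had negative fold changes and 4 positive ones, with a median of -0.31. Their median was -0.504 for ccl5 replicates 1 and 3 over control replicates 1 and 2. For ccl5 replicate 2 over control replicate 3 it was 0.069. Pomp, the maturation chaperone of the core, measured 87.7, 94.9 and 88.2 CPM after ccl5, against 122, 129 and 106 CPM in controls, every ccl5 library below every control (log2 fold change -0.40, SE 0.14, edgeR adjusted p 0.365). Psmg4, a chaperone of alpha ring assembly, measured 12.3, 13.9 and 12.3 CPM after ccl5, against 18.1, 17.8 and 15.8 CPM in controls, also every ccl5 library below. Akirin2, which carries proteasomes into the nucleus, measured 46.3, 39.6 and 42.1 CPM after ccl5, against 33.4, 29.4 and 35 CPM in controls, every ccl5 library above. Pomp, Psmg4 and Akirin2 were named because they had the smallest p of the 14. Over the 14, 3 had every ccl5 library below every control and 2 had every one above. Among all tested genes 7.49% were below and 8.27% above in this way. Of 10 tested regulators of proteasome genes 8 had positive fold changes and 2 negative ones, with a median of 0.34. Their median was 0.435 for ccl5 replicates 1 and 3 over control replicates 1 and 2. For ccl5 replicate 2 over control replicate 3 these genes had a median of 0.048. Among them Bach1, a repressor at antioxidant response elements, measured 134, 93.6 and 130 CPM after ccl5, against 69.4, 65.8 and 93.5 CPM in controls, and ccl5 replicate 2 and control replicate 3 were level. Aff4, a transcription elongation factor, and Mafk, a small MAF partner of NRF factors, had log2 fold changes of 0.70 (SE 0.26) and 0.69 (SE 0.28), both with overlapping groups.

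Genes that take proteasome products to MHC class I did not move as one with the immunoproteasome. Of 16, 9 had positive and 7 negative fold changes, with a median of 0.09. Tap1, a subunit of the peptide transporter, starts next to Psmb9 on the opposite strand, and in GENCODE M21 their spans share 212 bases. It measured 131, 64 and 122 CPM after ccl5, against 61.8, 61 and 58.6 CPM in controls, where Psmb9 stayed between 54.7 and 73.9 CPM in all 6. Ccl5 replicates 1 and 3 alone were high for Tap1 (log2 fold change 0.81, SE 0.29, edgeR adjusted p 0.365). Tapbp, the tapasin that loads peptides, measured 258, 112 and 217 CPM after ccl5, against 93, 88.5 and 93.7 CPM in controls. Its ccl5 libraries, but not its controls, were in the same order as those of Tap1 (log2 fold change 1.09, SE 0.32, edgeR adjusted p 0.365). Npepps, a cytosolic aminopeptidase, measured 238, 150 and 243 CPM after ccl5, against 145, 138 and 141 CPM in controls. For all 3, named because they had the smallest p of the 16, every ccl5 library was above every control. Over the 16 this held for 4, and 1 had every ccl5 library below. Among all tested genes 8.27% were above and 7.49% below in this way.

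Of 27 tested genes of interferon signalling and response 21 had positive fold changes and 6 negative ones, with a median of 0.32. Their median was 0.551 for ccl5 replicates 1 and 3 over control replicates 1 and 2. For ccl5 replicate 2 over control replicate 3 it was -0.032. Irf2, a factor at interferon response elements, measured 46.2, 26.9 and 43.7 CPM after ccl5, against 24.2, 20.8 and 22.9 CPM in controls. Jak2, a kinase of the interferon-gamma receptor, measured 143, 75.1 and 164 CPM after ccl5, against 69.3, 66 and 77.4 CPM in controls, overlapping through ccl5 replicate 2. Ifi47, an interferon-induced GTPase, was high only in control replicates 1 and 2: 3.49, 5.44 and 3.91 CPM after ccl5, against 25.2, 27.1 and 5.06 CPM in controls. Among 20 genes that supply ubiquitin or deliver substrates 15 had positive fold changes and 5 negative ones, with a median of 0.13. Ubqln2 and Ubqln1, shuttle receptors that carry substrates to the proteasome, had log2 fold changes of 0.80 (SE 0.27) and 0.37 (SE 0.14), with every ccl5 library above every control. Rps27a, which encodes ubiquitin fused to a ribosomal protein, measured 1020, 1220 and 1190 CPM after ccl5, against 1670, 1740 and 1370 CPM in controls, every ccl5 library below. Ubqln2, Ubqln1 and Rps27a were named because they had the smallest p of the 20. Over the 20, 5 had every ccl5 library above every control and 2 had every one below. Among all tested genes 8.27% were above and 7.49% below in this way.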

How the data were processed

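The deposited table holds whole-number read counts per gene, and per the file headers the authors made them with featureCounts 1.5.1 (primary alignments, UCSC mm10 gene annotation, no strand setting). The deposited gene length column was used for RPKM. Per the labels' protocols, poly(A) RNA was sequenced on single-end reads, and per the submitters' processing notes Trimmomatic, Bowtie, TopHat and DESeq2 were used, with roles and versions not given in the sources used here. Every column of counts belonged to 1 of the 6 samples, 3 per group.

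From the counts, TMM factors and CPM were computed, and genes were kept by filterByExpr (minimum count 10). The groups were compared across all kept genes with edgeR 4.0.16 (quasi-likelihood F test, R 4.3.3) and Benjamini-Hochberg adjustment at 0.05, two-sided. SE is the size of the log2 fold change over the square root of F. The fit was run on simulated libraries drawn independently, with changes larger than those of the members. That run does not cover the close pairs that these libraries form. Log2 levels used a prior count of 2. Ratios within pairs were compared by an exact permutation test over libraries. Overlap was read on CPM.

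The members and the gene lists were chosen with earlier results of these data known, so no p-value was adjusted over them alone. Named were the 5 immunoproteasome and PA28 genes, their counterparts, Psme3 and Psme4, in each other role class the 2 members with the smallest p and the 1 with the highest level per length, members below the filter, and from each pathway list the 3 genes with the smallest p. Others named by a count were chosen after their values were seen. Alternatives were DESeq2 1.42.0 (size factors, Wald test), limma 3.58.1 (voom with quality weights), other filters, a threshold of 0.1, library totals alone, each library left out in turn and subsets of libraries. Library totals alone, both ccl5 replicate 2 and control replicate 3 left out, these 2 libraries alone and a model term for them were chosen after seeing the data.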

Additional observations from a re-analysis of the deposited data

How the results depend on the processing

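With 3 libraries per group that form 3 pairs across the groups, calls depended on the libraries used. DESeq2's Wald test called 191 genes and 0 members. Limma-voom with quality weights called 8097 genes (66.5%) and 32 members (76.2%), with a median log2 fold change of -0.335 over the other members. Leaving out 1 library gave 0 to 3299 called genes (0% to 26.2%) and 0 to 10 called members (0% to 23.8%). Between 12 and 30 members then had groups that did not overlap (28.6% to 71.4%, where 16.7% to 63.2% of all tested genes did not). The median of the 5 immunoproteasome and PA28 genes lay between -0.065 and 0.056. Leaving out both ccl5 replicate 2 and control replicate 3 gave 8797 called genes (70.7%) and 31 called members (73.8%). There 38 members were without overlap (90.5%, where 85.3% of all tested genes were), and the median of the other members was -0.323. The next 2 subsets each hold a group of 1 library, whose spread is assumed to be that of the other group. Primary transplant libraries alone (ccl5 replicates 2 and 3, control replicate 3) gave 24 members without overlap (57.1%, against 50.3% of all tested genes) and a median of -0.11. Libraries with Y-linked reads alone (ccl5 replicate 2, 3 controls) gave 25 (59.5%, against 53.3%). These shares lie near those of all genes. Library totals alone gave medians of -0.211 for the 5 genes and -0.356 for the others. Ccl5 replicate 2 over control replicate 3 gave -0.016 for the others. The sign differed from that over 6 libraries for Psmb8 (-0.095), Psme2 (0.015), Psmb1 (0.008) and Psmd10 (0.016) in primary transplants alone. With Y-linked reads alone it differed for Psmb9 (0.10), Psmb10 (-0.061), Psmb6 (-0.374), Psme3 (0.088), Psmb3 (0.006), Psmd2 (-0.017), Psmd4 (-0.05), Psmd8 (-0.981) and Psmd5 (0.095). With library totals alone it differed for Psmb8 (-0.151), Psmb10 (-0.104) and Psmd4 (-0.059). When 1 library was left out, Psmb8 ranged from -0.004 to 0.073, Psmb9 from -0.133 to 0.068 and Psmb10 from -0.033 to 0.148. The cause of these changes was not tested. The other size factors, both filters, the threshold of 0.1 and the offset of 2 counts changed no result's direction or call. Of 18 named members below 0, 7 (Psma1, Psma6, Psmb2, Psmb5, Psmb7, Psmc6 and Psme1) were below 0 under all alternatives run, and of 7 above 0, Psme4 was the only one to stay above. The replicate numbers pair no libraries. A term that sets ccl5 replicate 2 and control replicate 3 apart as 1 block, chosen after seeing the data, gave 0 called genes in edgeR (3987 at an unadjusted p under 0.05, smallest adjusted p 0.151), 0 members and medians of -0.047 for the 5 genes and -0.227 for the others.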
